A study of Homo sapiens with 15 samples.

Results

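The genes described here are 9 that human cells use to sense and buffer zinc, out of 58219 genes in a table of RNA sequencing counts from bronchial epithelial cells exposed to fine particulate matter (PM2.5). They are the 7 metallothionein genes MT2A, MT1E, MT1X, MT1F, MT1M, MT1A and MT1G, the zinc exporter SLC30A1 and the transcription factor MTF1. They were taken by name, as known parts of one metal response and with earlier results of these data known. Each name matched 1 row of the table.

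Metallothioneins are small cytoplasmic proteins rich in cysteine that bind zinc, copper and cadmium. MTF1 is the zinc sensor that controls them: its zinc fingers fill when free zinc rises, and the factor then binds metal response elements in the promoters of metallothionein genes and of SLC30A1, whose product carries zinc out of the cell across the plasma membrane. Metallothionein transcripts are widely used as readouts of metal exposure, including in the airway epithelium, and glucocorticoids and oxidants also induce some of them.

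The cells were BEAS-2B, an immortalized line from human bronchial epithelium, grown in serum-free bronchial epithelial growth medium on plates coated with collagen. PM2.5 came from filters exposed in Beijing in winter and was extracted in water by sonication, so the data hold a single urban source of particles on a single cell line. The 5 conditions were Control_24h (medium alone), PM_24h_1dose (a single exposure to 1 µg/cm2 for 24 h), PM_24h_30dose (a single exposure to 30 µg/cm2 for 24 h), Control_7d (medium alone, changed daily) and PM_7d_1dose (1 µg/cm2 given every day). The labels give the repeated exposure as 7 d, while the methods count the last day as the day of collection, and cells of the repeated protocol were plated at a lower density. Each condition was run in 3 experiments, numbered by batch, which gave 15 libraries.

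Metal response elements carry a core of 7 bases, TGCACNC or TGCGCNC, and the promoters of the members are shown to place the response beside this sequence. RefSeq promoters on GRCh38.p14 were at hand for 4 of the 9 members, and the 250 bases before the RefSeq transcription start of each are printed 5′ to 3′ on the gene's strand, with matches to the core on either strand in capitals. The windows lie at chr16:56608334-56608583 (plus strand, MT2A), chr16:56682220-56682469 (plus strand, MT1X), chr1:211579162-211579411 (minus strand, SLC30A1) and chr1:37859593-37859842 (minus strand, MTF1).
MT2A: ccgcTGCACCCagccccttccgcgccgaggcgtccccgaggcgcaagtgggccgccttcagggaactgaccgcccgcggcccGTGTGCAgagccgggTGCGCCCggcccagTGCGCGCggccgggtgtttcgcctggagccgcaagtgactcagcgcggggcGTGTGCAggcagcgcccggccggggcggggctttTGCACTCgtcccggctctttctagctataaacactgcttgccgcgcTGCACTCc
MT1X: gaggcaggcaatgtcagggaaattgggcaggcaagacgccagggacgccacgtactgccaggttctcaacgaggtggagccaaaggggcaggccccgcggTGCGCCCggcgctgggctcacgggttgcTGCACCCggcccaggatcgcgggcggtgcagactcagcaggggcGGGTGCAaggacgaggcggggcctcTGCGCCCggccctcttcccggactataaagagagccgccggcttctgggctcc
SLC30A1: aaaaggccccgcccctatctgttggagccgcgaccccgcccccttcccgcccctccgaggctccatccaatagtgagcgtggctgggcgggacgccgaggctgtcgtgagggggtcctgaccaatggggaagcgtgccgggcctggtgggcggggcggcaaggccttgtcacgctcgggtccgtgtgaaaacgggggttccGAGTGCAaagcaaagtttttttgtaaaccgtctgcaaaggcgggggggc
MTF1: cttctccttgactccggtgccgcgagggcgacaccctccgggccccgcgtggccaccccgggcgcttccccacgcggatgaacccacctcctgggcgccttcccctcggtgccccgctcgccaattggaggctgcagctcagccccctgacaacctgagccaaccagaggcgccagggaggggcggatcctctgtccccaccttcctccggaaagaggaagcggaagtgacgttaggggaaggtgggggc

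The MT2A window held 7 matches that did not overlap, from 246 to 2 bases before the start, and only 11 of 35116 promoters (0.0313%) held as many. MT1X had 4 matches between 150 and 47 bases before the start, a number reached by 0.370% of promoters. SLC30A1 had 1 match, on the opposite strand, 49 to 43 bases before the start, which is common, since 24.8% of promoters held at least 1. The core did not occur in the MTF1 window. These are matches of letters in 250 bases and say nothing of whether MTF1 was bound there. They hold for the RefSeq starts, which are not those of the count table. The MT2A window lies inside the stretch given for MT2A below, and the SLC30A1 window lies beyond the end of SLC30A1.

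The 7 metallothionein genes lie within 75998 bases of chromosome 16 (GRCh38), a stretch that holds 16 genes of the table. In the coordinates of the count table MT2A (ENSG00000125148.6) spans 56608199 to 56609497, MT1E (ENSG00000169715.14) 56625475 to 56627112, MT1M (ENSG00000205364.3) 56632233 to 56633986 and MT1A (ENSG00000205362.11) 56638666 to 56640087. They are followed by MT1F (ENSG00000198417.6) at 56657694 to 56660698, by MT1G (ENSG00000125144.13), the only one of the 7 on the minus strand, at 56666731 to 56668065, and by MT1X (ENSG00000187193.8) at 56682424 to 56684196. SLC30A1 (ENSG00000170385.9) spans 211571568 to 211578742 and MTF1 (ENSG00000188786.9) 37809567 to 37859620, both on the minus strand of chromosome 1. All values are counts on annotated exons.

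Close copies can trade short reads, so the exons were checked for shared 50-base stretches, the length of the reads. Between 81.3% (MT1X) and 98.8% (MT1F) of the 50-base windows of a metallothionein gene were found in no other gene, with MT1M at 81.8%, MT1G at 83.6%, MT1E at 92.9%, MT1A at 94.2% and MT2A at 95.5%. For MTF1 the share was 99.1% and for SLC30A1 it was 100%. MT1X and MTF1 each overlap 1 further gene of the table, ENSG00000259827 and ENSG00000235673, and both of those had 0 counts in every library.

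Depth ran from 21460981 to 34724765 counted reads per library, with a median of 29243177, and 3 counts, taken as the floor, equal 0.0864 to 0.140 CPM (the count scaled to 1e6 counted reads, with the TMM factors of edgeR, a trimmed mean of M-values). Intervals and floors from counts cover counting error only. All 6 epithelial markers were expressed, from 29.4 CPM (EPCAM) to 1072 CPM (KRT5), but their levels moved with the conditions. Summed over the 6, they lay between 1976 and 2498 CPM in Control_24h, 1689 and 2589 in PM_24h_1dose, 825 and 1296 in PM_24h_30dose, 2215 and 2719 in Control_7d and 1382 and 1532 in PM_7d_1dose. The markers of other cell types were low, and PTPRC, CD3E, LYZ, PECAM1, CDH5 and VWF stayed at or below 0.263 CPM. CD14, a marker of monocytes, was present at 2.30 to 23.4 CPM, and of the fibroblast markers COL1A1 reached 52.0, COL1A2 29.7 and DCN 8.48 CPM, with PDGFRA at or below 0.836 CPM. The 3 libraries of the second 24-h experiment stood apart for several members: in its untreated cells MT2A was at 0.321 and MTF1 at 0.557 of the mean of the other 2 controls, and MT1F was at 2.58 and MT1M at 2.86 times that mean. Calls of the 9 members at 24 h that change without that experiment, or with the experiment number as a block, are given beside the gene or the count.

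Whether a high concentration of PM2.5 engaged the metal response was asked by comparing 30 µg/cm2 with medium alone at 24 h. MT2A, MT1E, MT1X, MT1G and SLC30A1 rose, by 1.97-fold (SLC30A1) to 4.91-fold (MT2A) among those above the floor in controls. MT1M, MT1F, MTF1 and MT1A did not pass the test. A call needed a log2 fold-change of 0.6 or more in size and an adjusted p (Benjamini-Hochberg, over 17599 genes) under 0.05 in edgeR's quasi-likelihood test, and 5 of 9 members were called higher where 3.82% of all genes were. With the experiment number as a block, MT1M and MT1F were added and 7 of 9 were called higher, against 7.36% of all genes. All 9 members passed edgeR's filter on low counts, MT1G only through its 30 µg/cm2 libraries, so its call is not independent of that filter. Leaving MT1G aside, 4 of the other 8 were called, and 6 of 8 with the block. The count was 6 of 9 with no filter, in edgeR's current mode, with DESeq2 and with the likelihood ratio test. Over all genes the number called higher rose as well, from 673 of 17599 to 829 with DESeq2 and 880 with the likelihood ratio test. In bulk RNA, a change in the share of cells that express a gene and a change in RNA per cell cannot be told apart. The median log2 fold-change of the 9 members, MT1G included, was 1.15, beside 0.03 over all genes tested. Epithelial markers moved in the same libraries: for KRT5, KRT8, KRT19 and CDH1, 4 of the 6, every 30 µg/cm2 library was below every control, with KRT5 at 748 ± 30.7 CPM in controls and 136 ± 33.3 CPM at 30 µg/cm2 (SD, n = 3). The share of all genes with every treated library below every control was not counted. The part of these markers in the members' results was not tested.

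**Figure D1:**
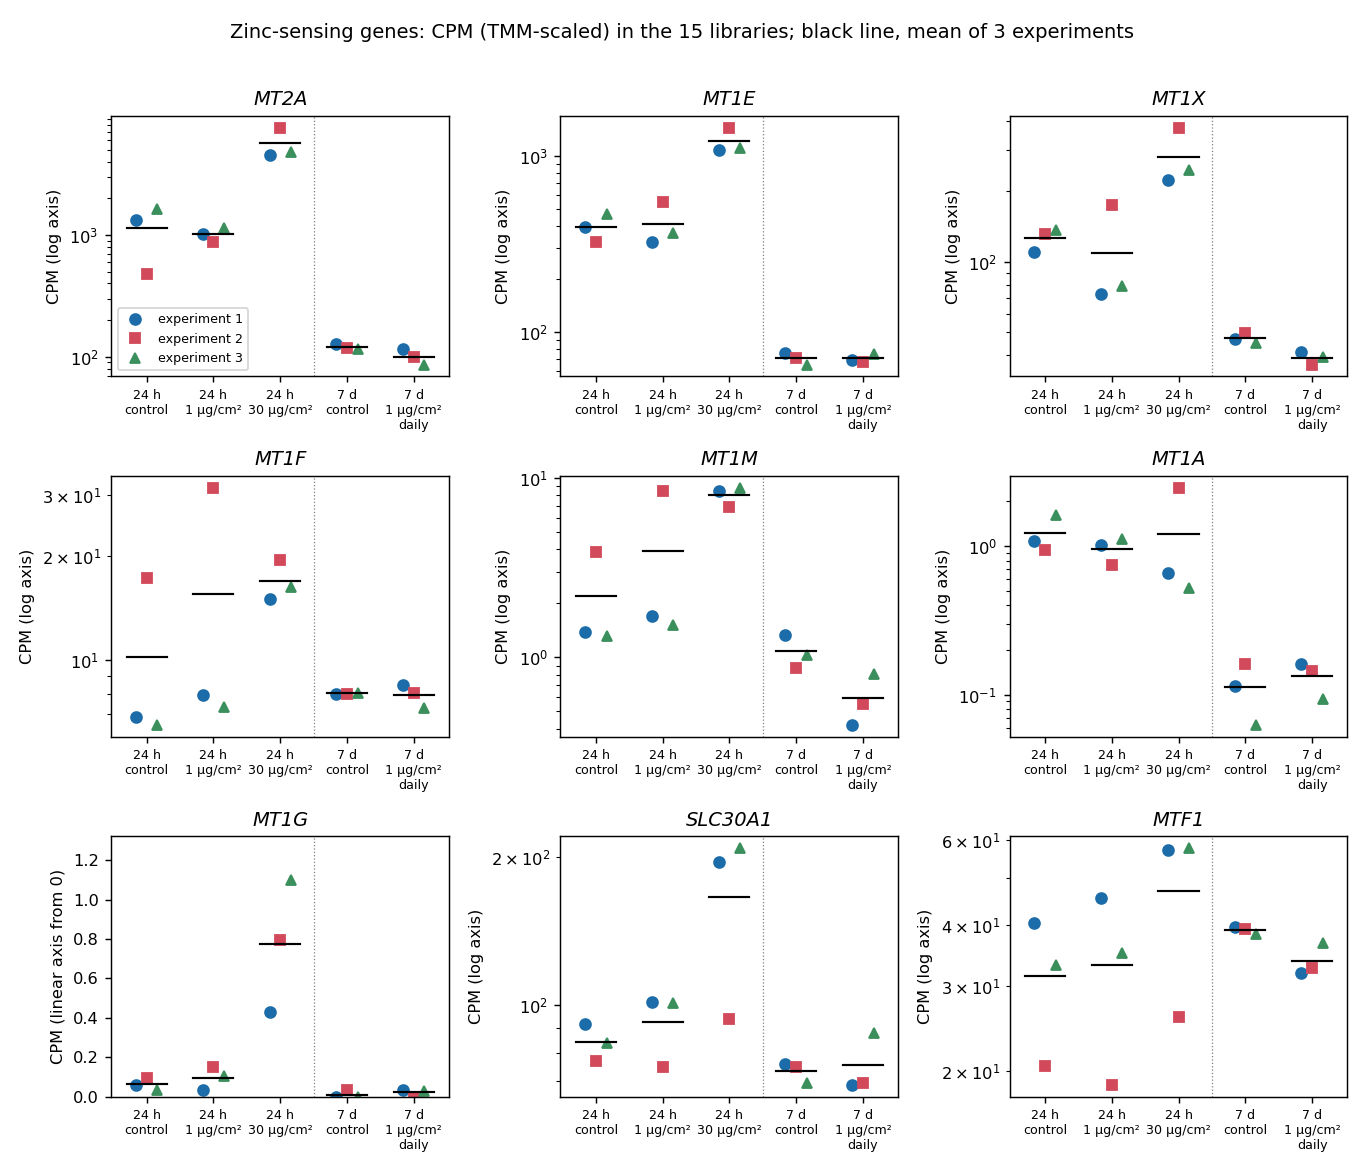
CPM of each of the 9 genes (vertical axis, logarithmic except for MT1G, which starts at 0) in the 15 libraries, by condition; symbols mark the experiment number within each protocol and black lines the mean of 3. The 3 libraries at 30 µg/cm2 lie above all 3 controls for MT2A, MT1E, MT1X, MT1M, MT1G and SLC30A1, and the 7-d libraries of MT2A, MT1E, MT1X and MT1A lie below every 24-h library.

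MT2A, the most abundant metallothionein in these cells, was at 1338, 477 and 1632 CPM in experiments 1, 2 and 3 of the 24-h control. After 30 µg/cm2 it was at 4535, 7540 and 4828 CPM. No treated library overlapped a control, and the second experiment had both the lowest control and the highest treated value. The fitted log2 fold-change was 2.29 (SE 0.35, 95% interval 1.55 to 3.04), with an edgeR adjusted p of 0.00087. Without the second experiment the fold was 3.12 in place of 4.91 (log2 fold-change 1.64, edgeR adjusted p = 5.31e-08). The call was lost when only the 6 libraries compared were fitted (log2 fold-change 2.29, edgeR adjusted p = 0.0513).

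MT1E, the second most abundant, encodes a metallothionein-1 isoform that many epithelial cells express. Its controls were at 392, 324 and 464 CPM and its 30 µg/cm2 libraries at 1074, 1436 and 1103 CPM. Every treated library was more than any control, and MT1E had the lowest adjusted p of the 9 members (log2 fold-change 1.61, SE 0.20, edgeR adjusted p = 0.000201).

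MT1X controls were at 111, 131 and 137 CPM, and the treated libraries were at 224, 372 and 246 CPM. The groups were again separate, at a log2 fold-change of 1.15 (SE 0.28, edgeR adjusted p = 0.0169). The call for MT1X depended on the libraries in the fit, since the adjusted p was 0.107 when only the 9 libraries of the 24-h protocol were used, and the call was also lost (log2 fold-change 1.05) without the control of experiment 1.

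MT1G, an isoform known for its strong response to metals in other cells, was close to silent here. The 3 controls held 2, 2 and 1 reads and the 3 libraries at 30 µg/cm2 held 13, 23 and 23 reads. Over the group, 59 reads against 5 gave a ratio of 12.2 with a counting interval of 4.93 to 38.9, and the edgeR adjusted p was 0.00332. Even at 30 µg/cm2 its level was only 0.775 ± 0.338 CPM (SD, n = 3).

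SLC30A1, the exporter that lowers cytoplasmic zinc, was at 91.4, 76.9 and 83.9 CPM in controls. At 30 µg/cm2 it was at 195, 93.6 and 208 CPM, so the groups did not overlap, but the second experiment moved by much less than the others. The fitted log2 fold-change was 0.98 (SE 0.24, edgeR adjusted p = 0.0168). This call did not hold in every setting, with an adjusted p of 0.105 in the 24-h libraries alone and 0.146 in the 6 libraries compared. Leaving out the control of experiment 2 (0.92) or 3 (0.97), or the 30 µg/cm2 library of experiment 1 (0.83) or 3 (0.78), also ended the call.

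MT1M showed the same order of values without passing the test. Its controls were at 1.38, 3.86 and 1.31 CPM and its treated libraries at 8.48, 6.90 and 8.76 CPM, with no overlap. The log2 fold-change was 1.90 (SE 0.58) at an edgeR adjusted p of 0.0544, and with the experiment as block it was 2.15 at an adjusted p of 0.00276. Without the second experiment, in which the control was high, the log2 fold-change was 2.66 (edgeR adjusted p = 4.6e-07), and leaving out only that control gave 2.57, which was called, as it was without the 30 µg/cm2 library of that experiment (1.996).

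MT1F was at 6.86, 17.3 and 6.52 CPM in controls and at 14.99, 19.5 and 16.3 CPM after 30 µg/cm2. The control of the second experiment lay above 2 of the treated libraries, so the groups overlapped. The log2 fold-change of 0.74 (SE 0.48) had an edgeR adjusted p of 0.393. Within experiments MT1F was 2.17, 1.13 and 2.48 times its control, and the fit with the block called it (log2 fold-change 0.91, edgeR adjusted p = 0.0186), as did the fit without the second experiment (1.21, adjusted p = 1.2e-06).

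MTF1, the zinc sensor itself, was at 40.5, 20.5 and 33.1 CPM in controls and at 57.4, 25.8 and 57.8 CPM at 30 µg/cm2. Its values overlapped because the second experiment was low in both groups. The log2 fold-change was 0.58 (SE 0.33, edgeR adjusted p = 0.320). With the block it was 0.55 at an adjusted p of 0.00167, which is under the fold threshold and so not a call, and without the second experiment it was 0.63 and called (edgeR adjusted p = 0.000428).

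MT1A was the member whose experiments went in opposite directions. Controls were at 1.08, 0.942 and 1.63 CPM, and the 30 µg/cm2 libraries were at 0.657, 2.46 and 0.527 CPM, from 11 to 71 reads. Experiments 1 and 3 were thus below and the second above every control, and the fitted log2 fold-change was 0.01 (95% interval -1.03 to 1.04, edgeR adjusted p = 0.995). Without the second experiment MT1A was called lower, at -1.18 (edgeR adjusted p = 0.0235), so that all 9 members were then called, 8 of them higher, where 19.1% of all genes were called in either direction.

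Side by side within each experiment, 8 of the 9 genes were above the same-numbered control in all 3 experiments. In experiments 1, 2 and 3 taken singly, 8, 9 and 8 members were above control, beside 50.1%, 53.5% and 50.4% of all genes tested. The share of all genes above control in all 3 was not counted, and MT1G is among the 8. The ratio for MT2A was 3.39 in experiment 1, 15.8 in experiment 2 and 2.96 in experiment 3. For MT1M the ratios were 5.88, 1.77 and 6.40, and for SLC30A1 they were 2.14, 1.22 and 2.48. MT2A, MT1E and MT1X thus had their highest ratio in the second experiment, and MT1F, MT1M, SLC30A1 and MTF1 their lowest. For 6 of 9 members every treated library exceeded every control library, which 11.7% of all genes tested did. MT1G is among the 6. It passed edgeR's filter only through its 30 µg/cm2 libraries, so its separation is not independent of that filter. The others were MT2A, MT1E, MT1X, MT1M and SLC30A1.

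**Figure D2:**
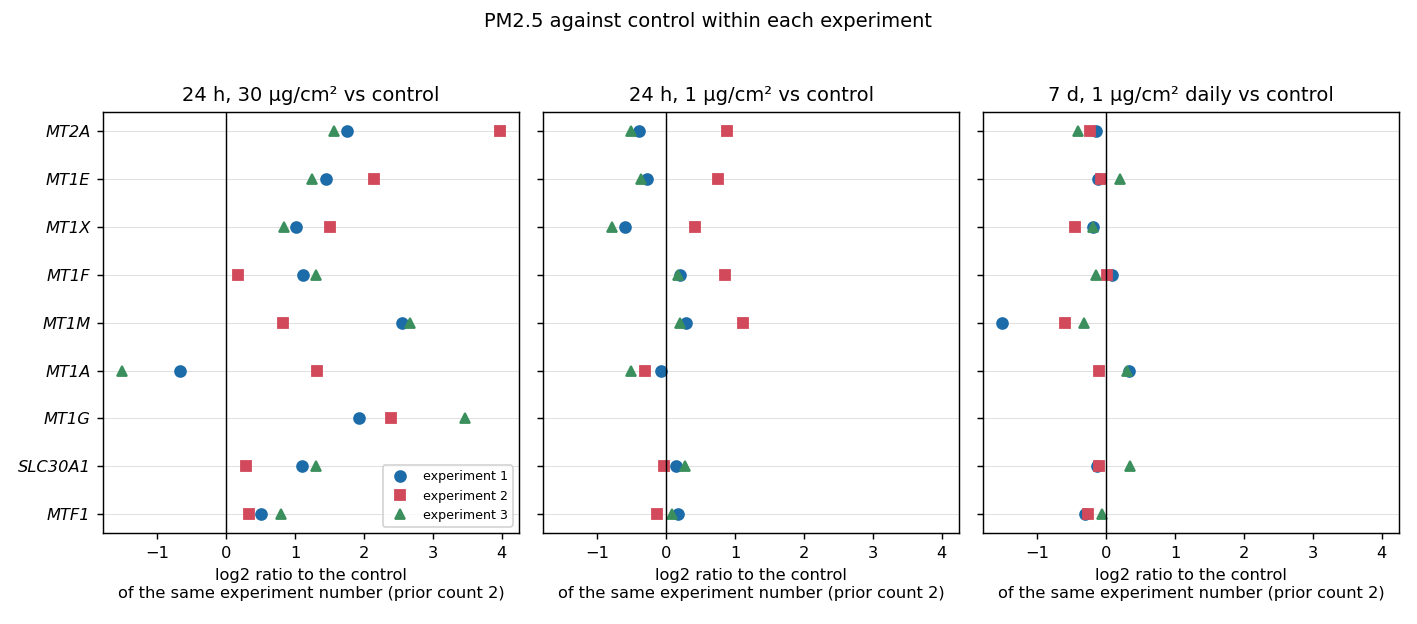
Log2 ratio of CPM to the control of the same experiment number (horizontal axis, prior count of 2) for each gene, at 30 µg/cm2 for 24 h, 1 µg/cm2 for 24 h and 1 µg/cm2 daily for 7 d; symbols mark the experiment, and MT1G is drawn only at 30 µg/cm2. At 30 µg/cm2 all points but 2 of MT1A lie to the right of 0, and at 1 µg/cm2 for 24 h MT2A, MT1E and MT1X lie on both sides.

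Metallothionein reads as a whole made up 0.159 ± 0.0589% of counted reads in the 24-h control and 0.672 ± 0.135% at 30 µg/cm2 (SD, n = 3). MT2A gave 78.6 ± 1.62% of these reads at 30 µg/cm2 and 65.0 ± 13.0% in the control, in which the second experiment was lower (50.0%) than the others (72.3% and 72.8%). Per kilobase of exon, MT2A was at 4338 ± 1276 CPM at 30 µg/cm2, MT1E at 1145 ± 191 and MT1X at 158 ± 45.0, while MT1F was at 8.96 ± 1.24, MT1M at 8.54 ± 1.07, MT1A at 3.07 ± 2.73 and MT1G at 1.03 ± 0.450. On the same scale SLC30A1 was at 30.3 ± 11.5 and MTF1 at 5.86 ± 2.28 CPM per kilobase. Among genes with at least 200 exon bases, MT2A ranked 5 or 6 by CPM per kilobase in the 3 libraries at 30 µg/cm2, and between 15 and 69 in the 24-h controls.

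**Figure D3:**
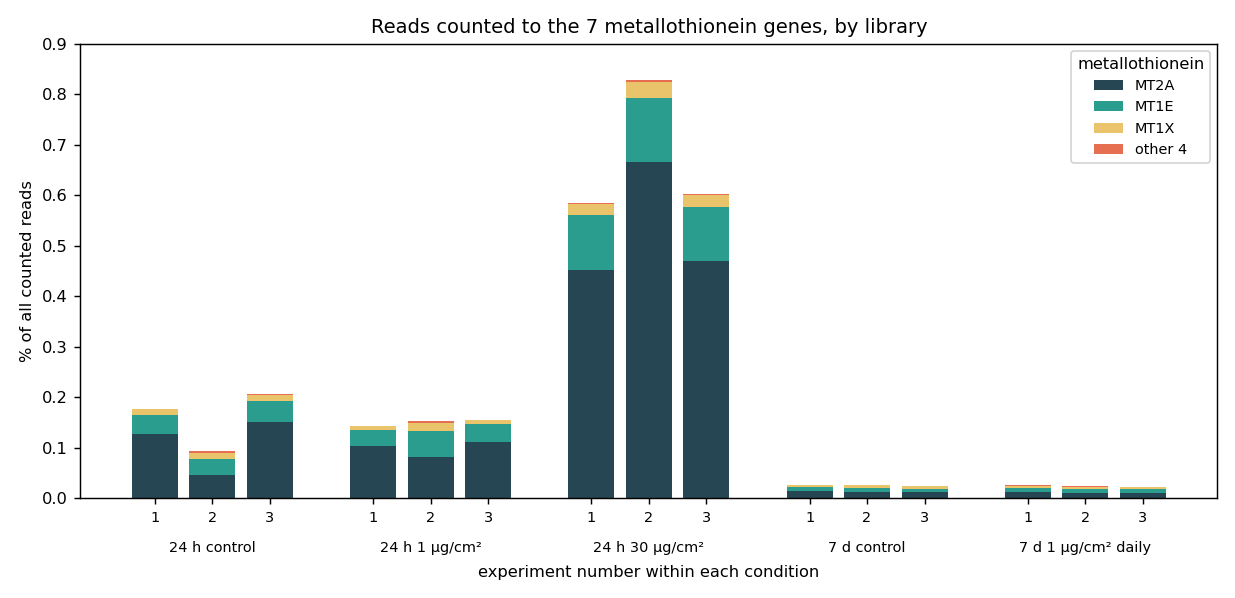
Share of all counted reads (vertical axis, in percent, from 0) that fell on the 7 metallothionein genes in each library, split into MT2A, MT1E, MT1X and the other 4. The bars at 30 µg/cm2 reach 0.585%, 0.828% and 0.604%, those of the 24-h control lie between 0.0927% and 0.206%, and those of the 7-d protocol between 0.0226% and 0.0271%.

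A low concentration, 1 µg/cm2 for 24 h, gave no call among the 9 members, with or without the block, and 0.0625% of all genes were called in either direction. MT2A was at 1019, 881 and 1143 CPM, inside the range of its controls, and its log2 fold-change of -0.18 had a 95% interval of -0.89 to 0.53. MT1E, at 324, 544 and 361 CPM, had a log2 fold-change of 0.06 (-0.35 to 0.47), and SLC30A1, at 101, 74.9 and 101 CPM, one of 0.14 (-0.36 to 0.64). The epithelial marker KRT5 was at 570 ± 52.6 CPM (SD, n = 3), with every library below every control. The intervals of MT2A and SLC30A1 do not exclude a change of the size of the fold threshold.

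MT1X had values of 72.8, 174 and 79.2 CPM at 1 µg/cm2. In experiments 1 and 3 it was 0.658 and 0.579 of its control and in the second experiment 1.33 times, and MT2A and MT1E split the same way. Of all genes tested, 21.8% were below control in experiments 1 and 3 and above it in the second. Without the second experiment MT1X was called lower (log2 fold-change -0.69, edgeR adjusted p = 0.000689), the only member among the 2.11% of genes called, and MT2A had -0.45 at an adjusted p of 0.047, under the fold threshold.

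The remaining members varied most in the second experiment. MT1F was at 7.92, 31.4 and 7.34 CPM and MT1M at 1.70, 8.48 and 1.51 CPM, each with its highest value in that library. MTF1, in contrast, had its lowest value there (45.5, 18.7 and 35.0 CPM). MT1A was at 1.02, 0.744 and 1.12 CPM, and MT1G held 1, 3 and 3 reads.

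Set directly against each other, 30 and 1 µg/cm2 at 24 h differed for the same 5 members that were called against control. MT2A was higher at 30 µg/cm2 by a log2 fold-change of 2.47 (SE 0.35, edgeR adjusted p = 0.000704), MT1X by 1.37 (SE 0.28, adjusted p = 0.00736) and MT1E by 1.56 (SE 0.20, adjusted p = 0.000368). For MT1G the ratio of read rates was 8.21 (59 against 7 reads, counting interval 3.75 to 21.3), and SLC30A1 differed by 0.84 (SE 0.23, edgeR adjusted p = 0.0363). The 5 calls, or 4 of the other 8 members without MT1G, stand against 3.62% of genes called higher, and with the block MT1M was added (1.47, edgeR adjusted p = 0.0198), with 6.97% of all genes. Without the second experiment 7 of 9 were called higher, against 7.38% of all genes, with MT1M (2.40, edgeR adjusted p = 1.33e-06) and MT1F (1.01, adjusted p = 8.15e-06) added. Both comparisons share the 30 µg/cm2 libraries. Of these calls, MT1X and SLC30A1 were lost when only the 9 libraries of the protocol were fitted, and with the 6 libraries compared only MT2A was kept. SLC30A1 was lost when any single library of these conditions other than the second at 30 µg/cm2 was left out (log2 fold-change 0.64 to 0.90), and MT1M was called without the second library at 1 µg/cm2 (2.31).

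Daily exposure to 1 µg/cm2 for 7 d gave no call among the members, in the fit without the block (0.227% of all genes called) or with it (4.39%). For 5 of the 6 epithelial markers every exposed library was below every control, with KRT5 at 917 ± 137 CPM in Control_7d and 482 ± 71.5 CPM after exposure (SD, n = 3). The monocyte marker CD14 was below every control as well, and the share of all genes that were was not counted. MT2A was at 128, 118 and 115 CPM in Control_7d and at 115, 100 and 86.3 CPM in PM_7d_1dose, a log2 fold-change of -0.26 (95% interval -0.97 to 0.45). With only the 7-d libraries fitted, MT2A had -0.25 (95% interval -0.46 to -0.05, edgeR adjusted p = 0.0677). MT1E was at 75.5, 70.9 and 64.9 CPM in control and at 69.3, 67.4 and 74.4 CPM after exposure, so the ranges crossed and the log2 fold-change was -0.00 (-0.41 to 0.41).

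MT1X, with controls at 46.9, 49.9 and 45.1 CPM and exposed libraries at 41.2, 36.5 and 39.4 CPM, was lower in every exposed library, at -0.28 (SE 0.28, edgeR adjusted p = 0.744). That SE rests on the spread of all 15 libraries. With only the 7-d libraries fitted, MT1X had -0.27 (SE 0.07, edgeR adjusted p = 0.0174), which is under the fold threshold and so not a call. MT1M (1.33, 0.868 and 1.04 CPM against 0.421, 0.549 and 0.811) and MTF1 (39.6, 39.3 and 38.4 CPM against 31.9, 32.7 and 36.7) also had every exposed library below every control. Their edgeR adjusted p-values were 0.659 and 0.851 in the fit of all 15 libraries. In the 7-d libraries alone, MT1M had -0.84 (SE 0.31, edgeR adjusted p = 0.0685) and MTF1 -0.21 (SE 0.07, adjusted p = 0.0543). Neither was a call, although MT1M was beyond the fold threshold in that fit. SLC30A1 was at 75.9, 74.9 and 69.5 CPM in control and at 68.9, 69.6 and 87.9 CPM after exposure, and MT1F stayed between 7.30 and 8.49 CPM in all 6 libraries. MT1A and MT1G held at most 5 reads in any 7-d library. Beyond these counts nothing can be read for either gene at this depth.

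Untreated cells were compared between the protocols to see the level from which each exposure started. MT2A, MT1E, MT1X and MT1A were lower in Control_7d than in Control_24h, and 4 of 9 members were called lower where 10.8% of all genes were. MT1A passed edgeR's filter on low counts only through the 24-h libraries, so its call is not independent of that filter. Leaving MT1A aside, the calls were MT2A, MT1E and MT1X. The 6 epithelial markers also separated these controls without overlap, with 4 of them above (CDH1 at 80.9 ± 6.37 CPM in Control_24h and 208 ± 11.4 CPM in Control_7d) and KRT8 and KRT18 below (KRT8 at 641 ± 139 and 371 ± 24.0 CPM), and their part in the members' results was not tested. The share of all genes that separated these controls without overlap was not counted. MT2A was lower by a log2 fold-change of -3.25 (SE 0.36, edgeR adjusted p = 3.85e-05), from a mean of 1149 CPM to one of 120 CPM. MT1E differed by -2.48 (SE 0.20, edgeR adjusted p = 6.32e-06) and MT1X by -1.41 (SE 0.28, adjusted p = 0.00216). For MT1A, 10 reads stood against 102, a ratio of 0.0908 with a counting interval of 0.0423 to 0.174.

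MTF1, the sensor, and SLC30A1, the exporter, did not pass this test. The log2 fold-change between controls was 0.32 for MTF1 (95% interval -0.39 to 1.02) and -0.20 for SLC30A1 (-0.70 to 0.31). MT1F (-0.34) and MT1M (-0.999) did not pass it either, and MT1G held 1 read against 5. Metallothionein reads were 0.0259 ± 0.0015% of counted reads in Control_7d, and MT2A ranked 287 to 336 by CPM per kilobase. Duration, plating density and daily medium change differ together between the protocols and cannot be told apart, and no block links experiments of the protocols.

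**Figure D4:**
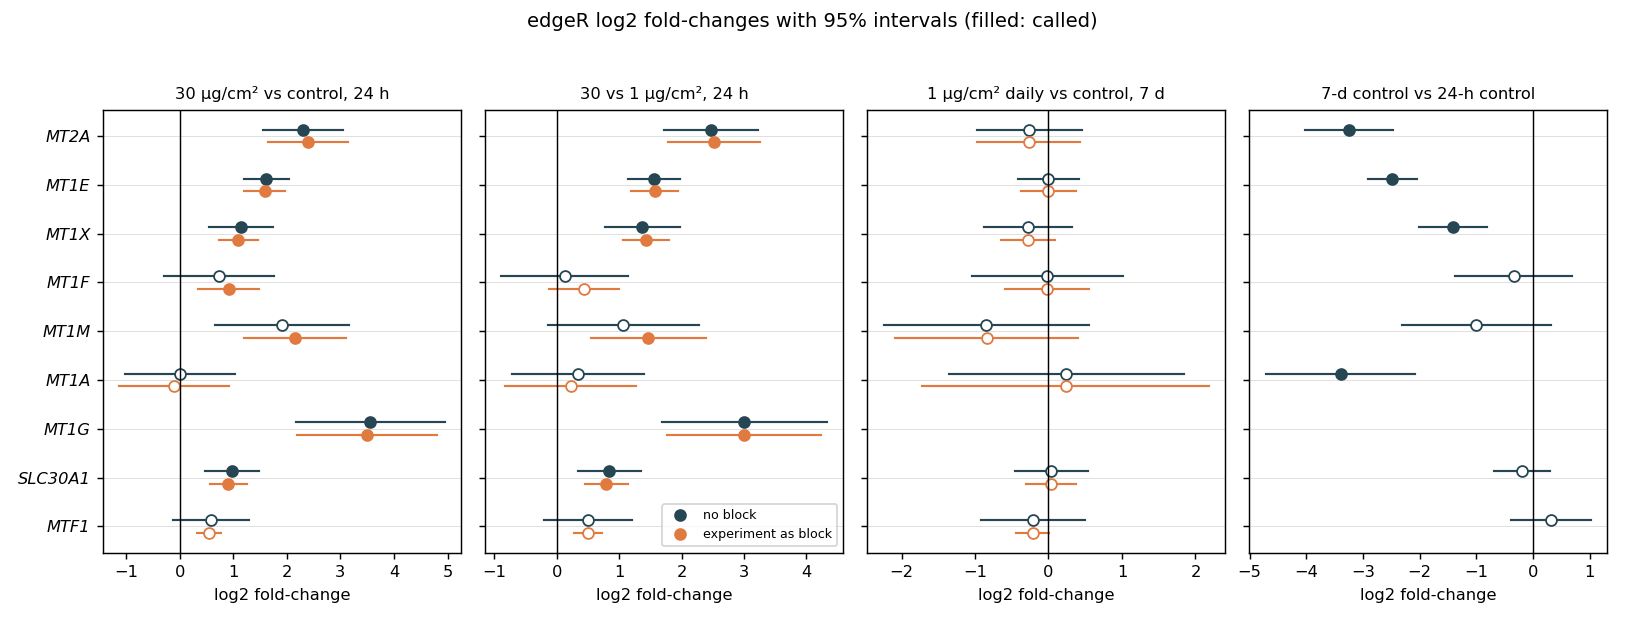
Log2 fold-changes from edgeR (horizontal axis, a separate scale in each panel) with 95% intervals for the 9 genes in 4 comparisons; dark points are fits without and orange points fits with the experiment as block, filled points were called, and MT1G is left out where both groups were at the floor. At 30 µg/cm2 the intervals of MT1F and MTF1 cross 0 without the block and not with it, and the comparison of controls, for which no block exists, has 4 filled points, all below 0.

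The response to daily exposure was lower than the response to 30 µg/cm2 for MT2A and MT1E, in the test of the difference itself. The difference of log2 fold-changes was -2.55 for MT2A (SE 0.48, edgeR adjusted p = 0.0147) and -1.62 for MT1E (SE 0.27, adjusted p = 0.00936), and 2 of 9 members stand against 0.977% of all genes called lower. With the block the count was 6 of 9, against 7.82% of all genes, the additions being MT1M (-3.00, edgeR adjusted p = 0.0126), MT1X (-1.38, adjusted p = 0.00229), SLC30A1 (-0.88, adjusted p = 0.0165) and MTF1 (-0.77, adjusted p = 0.00378). Without 24-h experiment 2 it was 7 of 9, against 10.6% of all genes, with MT1F (-1.22, edgeR adjusted p = 2.86e-05) in addition to those 6. The call for MT2A was lost (log2 difference -2.46) when the third PM_7d_1dose library was left out. Concentration and schedule both differ in this contrast. Between daily and single exposure to 1 µg/cm2, no member was called, with 0% of all genes called by edgeR's quasi-likelihood test, 1245 genes at an unadjusted p under 0.05, 66 called by DESeq2 and 13 by the likelihood ratio test. Without 24-h experiment 2 MT1M was called lower here (-1.10, edgeR adjusted p = 0.0491), and 9.84% of all genes were called. The difference for MT2A was -0.08 (95% interval -1.09 to 0.93).

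Ordered by mean level, 8 of the 9 members had their highest mean at 30 µg/cm2. MT1A, at 1.22 CPM both there and in Control_24h, was the other. MT1G is among the 8 and passed edgeR's filter only through its 30 µg/cm2 libraries. The share of all genes with their highest mean at 30 µg/cm2 was not counted, so the count of members is a description only. The order for MT2A was PM_7d_1dose, Control_7d, PM_24h_1dose, Control_24h and PM_24h_30dose, with means of 101, 120, 1014, 1149 and 5634 CPM. The pairs PM_24h_1dose with Control_24h and Control_7d with PM_7d_1dose overlapped in their libraries. For MT1F and SLC30A1 all 4 neighbouring pairs in this order overlapped in their libraries.

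The rest of the metallothionein locus and its relatives gave little. Of 13 other metallothionein genes and pseudogenes, 4 passed the filter. At 30 µg/cm2, where 3.82% of all genes were called higher, 1 of these 4 was called higher. This was MT3, the isoform best known from brain, at 0.452, 0.848 and 0.390 CPM in controls and 1.35, 4.13 and 1.15 CPM at 30 µg/cm2 (log2 fold-change 2.003, SE 0.59, edgeR adjusted p = 0.047). MT1L, a pseudogene of which no 50-base window is unique, was at 37.0, 20.6 and 39.3 CPM in controls and at 17.0, 42.7 and 18.6 CPM at 30 µg/cm2, below control in experiments 1 and 3 and above it in the second, as MT1A was. MT1L was lower in Control_7d than in Control_24h (-2.38, SE 0.33, edgeR adjusted p = 0.000198).

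Among zinc exporters other than SLC30A1, 7 of 9 genes were tested and SLC30A2 alone was called higher at 30 µg/cm2. That is 1 of 7, where 3.82% of all genes were called higher. SLC30A2 loads zinc into vesicles, and its controls held 5, 13 and 3 reads (0.151, 0.612 and 0.106 CPM) against 109, 53 and 53 reads (3.58, 1.84 and 2.54 CPM) at 30 µg/cm2. The log2 fold-change was 3.29 (SE 0.68, edgeR adjusted p = 0.00717), and 4.51 without the second experiment. It was also higher in Control_7d than in Control_24h (3.02, SE 0.68, edgeR adjusted p = 0.00475), the opposite direction to the 4 metallothioneins called. With the block SLC30A3, a vesicular transporter, was added at 30 µg/cm2 (0.84, edgeR adjusted p = 0.00243), with 7.36% of all genes called higher. The median log2 fold-change of the list was 0.23.

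Of 14 zinc importers, 12 were tested and SLC39A8 was the one called, lower at 30 µg/cm2. Over all genes, 747 of 17599 were called lower there, so 1 of 12 says little about importers as a group. SLC39A8 brings zinc, manganese and cadmium into cells, and it was at 27.4, 34.3 and 31.5 CPM in controls and at 14.0, 23.3 and 14.4 CPM at 30 µg/cm2. Every treated library was below every control (log2 fold-change -0.85, SE 0.18, edgeR adjusted p = 0.00954), and the gene was also lower than at 1 µg/cm2 (-0.74, SE 0.18, adjusted p = 0.0207). The median over the 12 importers was -0.06.

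Copper handling was represented by 7 genes, all tested. At 30 µg/cm2 1 of them was called higher, beside 3.82% of all genes, and none of the 4 lists was tested against that share. SLC31A1, the main copper importer, was at 82.2, 67.8 and 82.7 CPM in controls and at 147, 106 and 151 CPM at 30 µg/cm2, with no overlap and a log2 fold-change of 0.80 (SE 0.14, edgeR adjusted p = 0.00239). Against 1 µg/cm2 it was higher by 0.75 (SE 0.14, adjusted p = 0.00393). The copper chaperone gene ATOX1 was lower in Control_7d than in Control_24h (-1.33, SE 0.35, edgeR adjusted p = 0.0119). With the block, SLC30A2 (2.08, edgeR adjusted p = 0.00903), SLC30A3 (0.60, adjusted p = 0.0156) and MT3 (1.09, adjusted p = 0.0109) were also called higher at 30 than at 1 µg/cm2. In the same fit the response to daily exposure differed from that to 30 µg/cm2 for SLC39A8 (0.81, edgeR adjusted p = 0.00318), SLC31A1 (-0.69, adjusted p = 0.00153) and SLC30A3 (-0.85, adjusted p = 0.0237). No gene of these 4 lists was called at 1 µg/cm2, for 24 h or 7 d, with or without the block. Without 24-h experiment 2, SLC39A10 (-0.97, edgeR adjusted p = 1.82e-06), MT1L (-1.12, adjusted p = 8.65e-06) and SLC30A3 (0.89, adjusted p = 0.00179) were added to the calls at 30 µg/cm2. Leaving that experiment out also added calls in these lists when 30 was set against 1 µg/cm2, between the controls and in both differences of responses, and those calls are not described here.

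**Figure D5:**
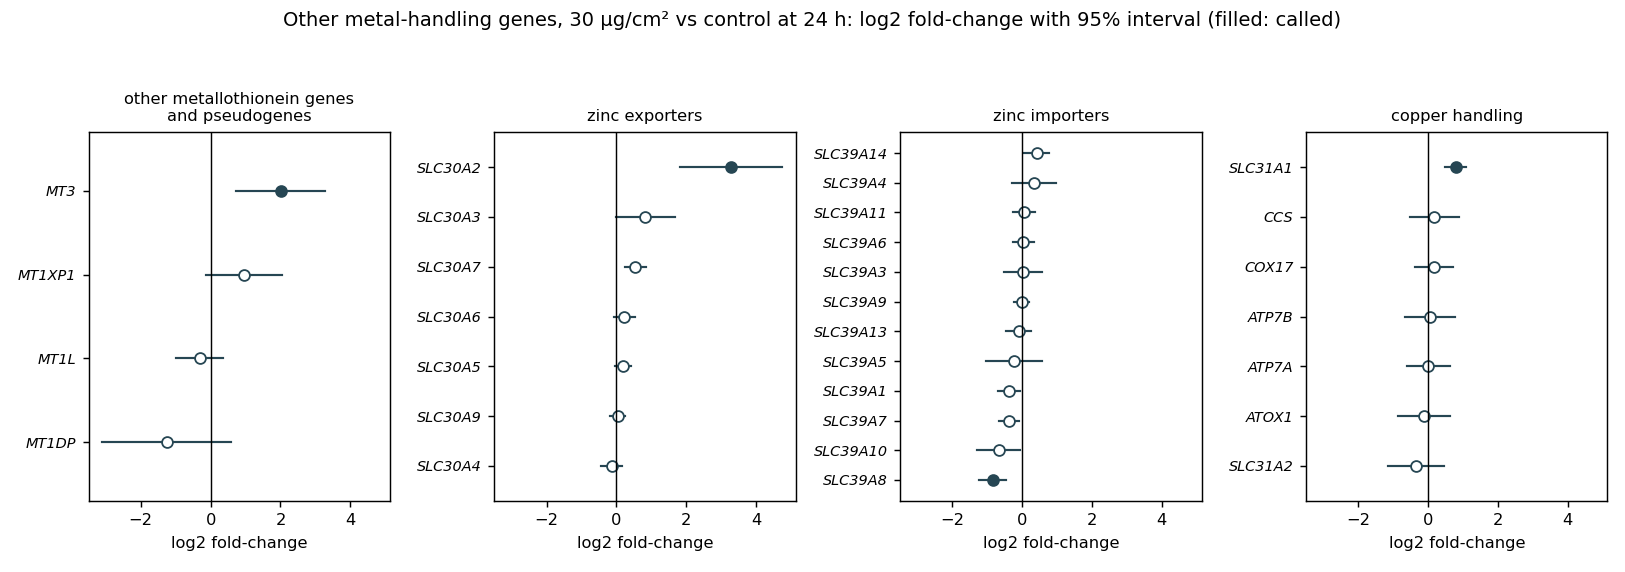
Log2 fold-change with 95% interval (horizontal axis) at 30 µg/cm2 against control for 24 h, for the tested genes of 4 lists; filled points were called. MT3 (2.003), SLC30A2 (3.29) and SLC31A1 (0.80) are filled to the right of 0 and SLC39A8 (-0.85) to the left.

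The genes outside the set whose levels followed MT2A most closely over the 15 libraries were HPCAL1 (Pearson r = 0.992 on log2 CPM), PELO (0.989), DPP3 (0.984), SMTN (0.984) and HARS1 (0.977). These r values are a description over 15 libraries that fall into separate conditions and share their depth. HPCAL1, which encodes a calcium-binding protein, was at 94.4 ± 10.95 CPM in Control_24h, 173 ± 9.68 CPM at 30 µg/cm2 and 42.0 ± 1.34 CPM in Control_7d (SD, n = 3), a narrower range than that of MT2A. Among the members r with MT2A was 0.984 for MT1E, 0.937 for MT1X, 0.854 for MT1A, 0.837 for MT1G, 0.799 for MT1M, 0.711 for SLC30A1, 0.484 for MT1F and 0.145 for MTF1.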

How the data were processed

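RNA was sequenced from 15 libraries of BEAS-2B cells (poly-A selected, single-end reads of 50 bases). The authors aligned the reads with STAR 2.5.3 to GRCh38, counted them per gene with featureCounts and deposited the raw counts without normalization, together with the exon length of each gene. The sample labels name hg19, but 55841 of 57392 genes start within 5000 bases of their GENCODE 44 position on GRCh38. The strand setting is not given in the sources used here.

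Counts were fitted in R 4.3.3 with edgeR 4.0.16 (filterByExpr by condition, TMM, quasi-likelihood in its earlier mode, 1 mean per condition, all 15 libraries), which kept 17599 of 58219 genes. A gene was called at a log2 fold-change of 0.6 or more in size with an adjusted p (Benjamini-Hochberg) under 0.05. SEs are the log2 fold-change over the square root of F. Log2 CPM for ratios within experiments and for likeness used a prior count of 2. The fit was tested on simulated counts with the same dispersion for every gene and no experiment effect. That test therefore does not cover the spread between experiments seen here.

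The series record gives the sample number as the experimental batch, so numbers pair libraries within a protocol. Deviations from the group means correlated at 0.201 to 0.721 between same-numbered 24-h libraries and at -0.683 to 0.453 (mean -0.231) between different numbers. Different numbers above 0 were all experiments 1 and 3 (0.0998 to 0.453), so the second experiment weighs most here. In the 7-d protocol the values were 0.121 to 0.181 and -0.127 to -0.034 (mean -0.077). Deviations from a group mean sum to 0, which lowers the values for different numbers. Fits with this replicate block, numbered separately in each protocol, are given where they change a call. Replicates of a condition differed beyond sampling noise (chi-square per degree of freedom 4.04 to 161).

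The members and lists were chosen with earlier results of these data known. Named genes are the 9 members, every gene of the lists called in a comparison, and the 5 tested genes outside the set with the highest Pearson r to MT2A. Alternatives were RLE and upper-quartile scaling, no filter or 1 CPM in 3 libraries, fewer libraries in the fit, the block, edgeR's current mode, DESeq2 1.42.0, the likelihood ratio test, each library left out, and 24-h experiment 2 left out. Promoters come from RefSeq (GRCh38.p14). Tables and figures were made with Python 3.11.15, pandas 2.3.3, scipy 1.17.1 and matplotlib 3.10.9.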

Additional observations from a re-analysis of the deposited data

Results flagged for a closer look

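For 3 genes the response to daily 1 µg/cm2 for 7 d differed from the response to 30 µg/cm2 for 24 h in edgeR's test of the difference itself. The difference of log2 fold-changes was -2.55 for MT2A (edgeR adjusted p = 0.0147), -1.62 for MT1E (adjusted p = 0.00936) and -3.96 for SLC30A2 (adjusted p = 0.0375). MT2A and MT1E were called higher at 30 µg/cm2 and had log2 fold-changes of -0.26 and -0.00 after daily exposure. The exposures of both protocols start from different control levels, since MT2A and MT1E were lower and SLC30A2 higher in Control_7d than in Control_24h, and the part of that difference in these results was not tested.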

How the results depend on the processing

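No called log2 fold-change of a member changed sign under the block, fewer libraries in the fit or without 24-h experiment 2, but values that were not called did: MT1A at 30 µg/cm2 (0.01) was -0.10 with the block and -1.18, called, without experiment 2, and MT1X between daily and single 1 µg/cm2 (-0.06) was 0.05 and 0.42. The count of members called at 30 µg/cm2 against control was 5, and it was 3 with only the libraries of the protocol, 3 with only the 2 groups compared, 9 without 24-h experiment 2, 7 with the block, and 4 to 6 with single libraries left out. Against 1 µg/cm2 it was 5, then 3, 1, and 4 to 6 in the same order for the protocol, the 2 groups and single libraries, and 7 without experiment 2. For 1 µg/cm2 at 24 h it was 0, and 1 without experiment 2, as was the difference between daily and single 1 µg/cm2. The difference between daily exposure and 30 µg/cm2 had 2 members called, 4 with no filter, with DESeq2 or with the likelihood ratio test, 7 without experiment 2, 6 with the replicate block, and 1 to 3 with single libraries left out, the 1 being without the third PM_7d_1dose library. The 0 members after daily exposure and the 4 between controls were found under every alternative run. Calls over all genes moved more: the replicate block gave 2681 in place of 1420 at 30 µg/cm2, 74 in place of 11 at 1 µg/cm2, 2737 in place of 1379 between concentrations, 773 in place of 40 after daily exposure, 2572 in place of 320 for daily exposure against 30 µg/cm2 and 181 in place of 0 against single 1 µg/cm2. Fitting only the libraries of the protocol gave 545, 3, 425 and 1029 for the first 4 of these, and only the 2 groups 360, 2, 149 and 1029. DESeq2 gave 39, 251 and 788, the likelihood ratio test 34, 194 and 680, and no filter 38, 92 and 488, for 1 µg/cm2, daily exposure and daily exposure against 30 µg/cm2. Without experiment 2 the counts were 3430, 378 and 3113 at 24 h, and 3884 and 1766 for the differences. Single libraries left out gave 794 to 2706 at 30 µg/cm2, 711 to 2715 between concentrations and 131 to 1459 for daily exposure against 30 µg/cm2. With the filter at 1 CPM in 3 libraries MT1G was not tested. No block could be fitted between the controls of the protocols. Beyond the calls given beside each gene, the block changed no call of a member. The cause of these moves was not tested. Depth limits MT1G in all libraries and MT1A in the 7-d libraries.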

Other observations

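MT1A and the pseudogene MT1L had the same pattern at 30 µg/cm2 for 24 h, but not at 1 µg/cm2. At 1 µg/cm2 the ratios to the same-numbered controls were 0.945, 0.804 and 0.702 for MT1A and 0.690, 1.47 and 0.733 for MT1L. The ratio of 30 µg/cm2 to the same-numbered control was 0.631, 2.503 and 0.351 for MT1A and 0.460, 2.07 and 0.475 for MT1L in experiments 1, 2 and 3, while MT2A and MT1E were above control in all 3. Of all genes tested, 16.3% were below control in experiments 1 and 3 and above it in the second. No 50-base window of MT1L was unique to it. Its windows were shared with ENSG00000291105 and MT1P3, not with MT1A, and MT1P3 had 0 counts in every library. The windows of MT1A that were shared matched MT1X, MT1P3, MT1F and MT1M. Without the second experiment both genes were called lower at 30 µg/cm2, MT1A at a log2 fold-change of -1.18 (edgeR adjusted p = 0.0235) and MT1L at -1.12 (adjusted p = 8.65e-06).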
